A study of Taeniopygia guttata with 169 samples.

Results

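Adult male and female zebra finches were compared by RNA sequencing of whole bone marrow at day 90. All 25 males with a library at that age entered the comparison, with 15 of the 18 females, so that 40 of the 43 adult libraries of labelled sex in the table were used. Another 2 adults, whose sex the labels do not give, were not analysed here. The table also holds 62 libraries of males and 56 of females sampled at 6 to 35 days of age. The males were 14 birds fed 1.2 ppm of MeHg (methylmercury, a toxic organic mercury compound) in food and 11 control birds (Hg and C in the labels). The females were 7 MeHg birds and 8 control birds. The other 3 day 90 females, 1 MeHg and 2 control birds, stood apart from the rest and were left out by rule, and their values are given beside the results they touch. Each group compared, by sex and treatment, held birds of both labelled cohorts, while the 3 females left out were all of cohort 2. Cohort 1 held 4 MeHg and 6 control males, with 4 MeHg and 5 control females. Among the birds compared, cohort 2 held 10 MeHg and 5 control males, with 3 MeHg and 3 control females. The series asks how this dose affects the blood-forming system over development, in finches whose lines differed in earlier exposure, which the labels do not give for each bird. Its labels give no strain, relatedness or breeding state of the birds, and do not say in words that each library is a separate bird. P-values here therefore measure the spread between libraries.

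In birds the male is the sex with 2 alike sex chromosomes, a pair of Z chromosomes, and the female carries a Z and a W. W genes can be expressed by females alone. Birds are known to balance the dose of Z genes between the sexes only in part, so that many Z genes have more transcript in males than in females, gene by gene and to differing degrees. Bone marrow is where most blood cells form, and in female birds it can also hold medullary bone, a calcium store laid down around egg formation under oestrogen. The table gives Ensembl gene identifiers without names or positions, and the reference table used here paired 0 of them with a symbol. No gene below could therefore be assigned to a chromosome, a cell type or a function, and the marrow label could not be checked against marker genes.

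Values are normalised counts, that is, reads divided by a size factor for each library. Libraries of the 40 birds held 4724894 to 14734247 assigned reads, with a median of 7824080. Males and females were not told apart by total reads, by RNA integrity or by the share of counts that the top 3 genes took (two-sided permutation test of each, 100000 resamples; the lowest of the 3 adjusted p-values was 0.418). That share was 15.3% ± 6.58 (SD, n = 25) in males and 18.2% ± 4.87 (SD, n = 15) in females. On 11 genes that were at least 4-fold higher in females at younger ages, the averages of the 25 males all lay below those of the 18 females. In a principal component analysis of the 43 birds the 3 females set apart had scores of 117.5 to 131.2 on the first component, which held 25.2% of the variance, and the next bird, also a female, had 43.5.

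Marrow of the 2 sexes differed in 771 of 14042 genes tested, 5.49%, in a fit with treatment, cohort and plate as covariates (limma on log2(normalised count + 1), Benjamini-Hochberg adjusted p under 0.05). Of these, 576 genes were higher in males, 4.10% of those tested, and 195 were lower in males, 1.39%. In bulk marrow, fewer cells of a type and less RNA per cell cannot be told apart. Plate C held 2 males and 0 females. With plate as a covariate, those 2 males gave no direct comparison with females. Fits of a single diet or cohort, given below, kept plate as a covariate, and more of their plates held a single sex. The 2 directions had different shapes. Genes higher in males had a median difference of 0.89 on the log2 scale, with quartiles of 0.70 and 1.03, and their ratio of mean levels had a median of 1.81. Genes lower in males had a median of -0.33 and reached from -0.16 to -4.85. Over all genes tested the median was -0.01, with quartiles of -0.13 and 0.13. At an unadjusted p under 0.05 there were 2366 genes. Differences of at least 0.5 that were not called numbered 459 higher and 293 lower in males.

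**Figure D1:**
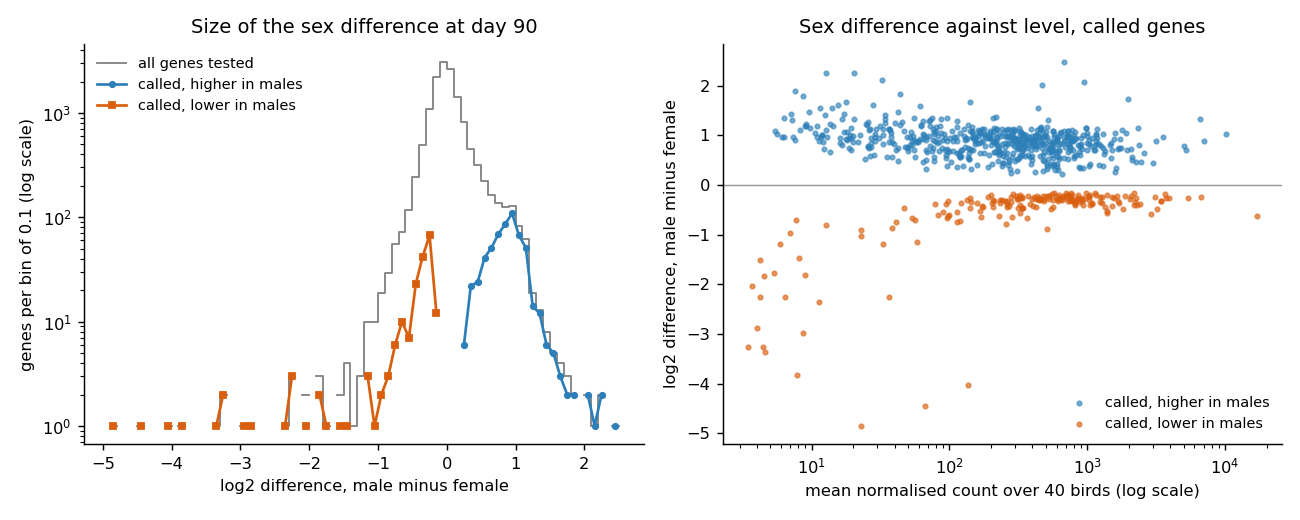
Left, the number of genes (log axis) in each 0.1-wide bin of the log2 difference, male minus female, for all 14042 genes tested and for the called genes of each direction. Right, the same difference against the mean normalised count over 40 birds (log axis), 1 point a called gene: genes higher in males form a band below and around 1 at every level, and large negative differences lie mostly at low levels.

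Called genes higher in males had differences of similar size across the range of expression, somewhat smaller at high levels. Among the 77 with a mean under 30 normalised counts the median log2 difference was 1.02. It was 0.83 among the 200 with a mean of 300 to 1000 and 0.79 among the 55 above 1000. The smallest difference called was 0.53 under a mean of 30, 0.22 at 300 to 1000 and 0.25 above 1000. The fall in the medians may therefore follow in part from the calling. In all, 524 of the 576 (91%) reached 0.5 and 29.2% reached 1, a 2-fold difference, and the fullest 0.1-wide bin ran from 0.9 to 1. The difference exceeded the SD between birds of either sex in 539 of the 576 (93.6%), and in 5.12% of all genes tested. Since the genes were called against the spread of these birds, that count only describes them. In 91 genes every male lay above every female, 0.648% of those tested, and their differences ran from 0.57 to 1.18 with a median of 0.96. These 91 genes did not include those with the largest differences, which reached 2.47.

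ENSTGUG00000004334, the most abundant gene higher in males by at least 0.5, is such a gene. It had 9002 to 14590 normalised counts in males, with a median of 12371, and 4734 to 8147 in females, with a median of 6409. All 25 males lay above the highest female. The means were 12381 ± 1527 (SD, n = 25) in males and 6340.2 ± 918 (SD, n = 15) in females, a log2 difference of 1.02 ± 0.06 (SE; limma, adjusted p = 1.19e-14). The difference was 1.09 ± 0.12 (SE) in MeHg birds alone and 0.98 ± 0.14 (SE) in controls alone. The females set apart had 5543, 6785 and 6884 normalised counts, within the range of the other females. Its medians in younger birds were 14057.5 in males and 7791 in females of day 6, 12989.9 in males and 6569.6 in females of day 18, and 12579.5 in males and 6569.1 in females of day 35. The log2 difference at these ages was 0.91, 0.97 and 0.92.

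ENSTGUG00000002454 had the largest difference among genes higher in males, and it varied far more between birds. Males ranged from 75.5 to 3560.3 normalised counts with a median of 652, and females from 47.1 to 481 with a median of 133.4. The sexes overlapped: 15 of 25 males lay above the highest female, and 0 of 15 females lay above the male median. Means were 981 ± 920.5 (SD, n = 25) in males and 158.7 ± 119.2 (SD, n = 15) in females, and the log2 difference was 2.47 ± 0.43 (SE; limma, adjusted p = 8.83e-05). It did not pass in MeHg birds alone (1.95 ± 0.81 SE, adjusted p = 0.602) or in controls alone (2.42 ± 0.93 SE, adjusted p = 0.38). It passed in cohort 1 (3.31, adjusted p = 0.00592) and not in cohort 2 (1.85, adjusted p = 0.201).

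**Figure D2:**
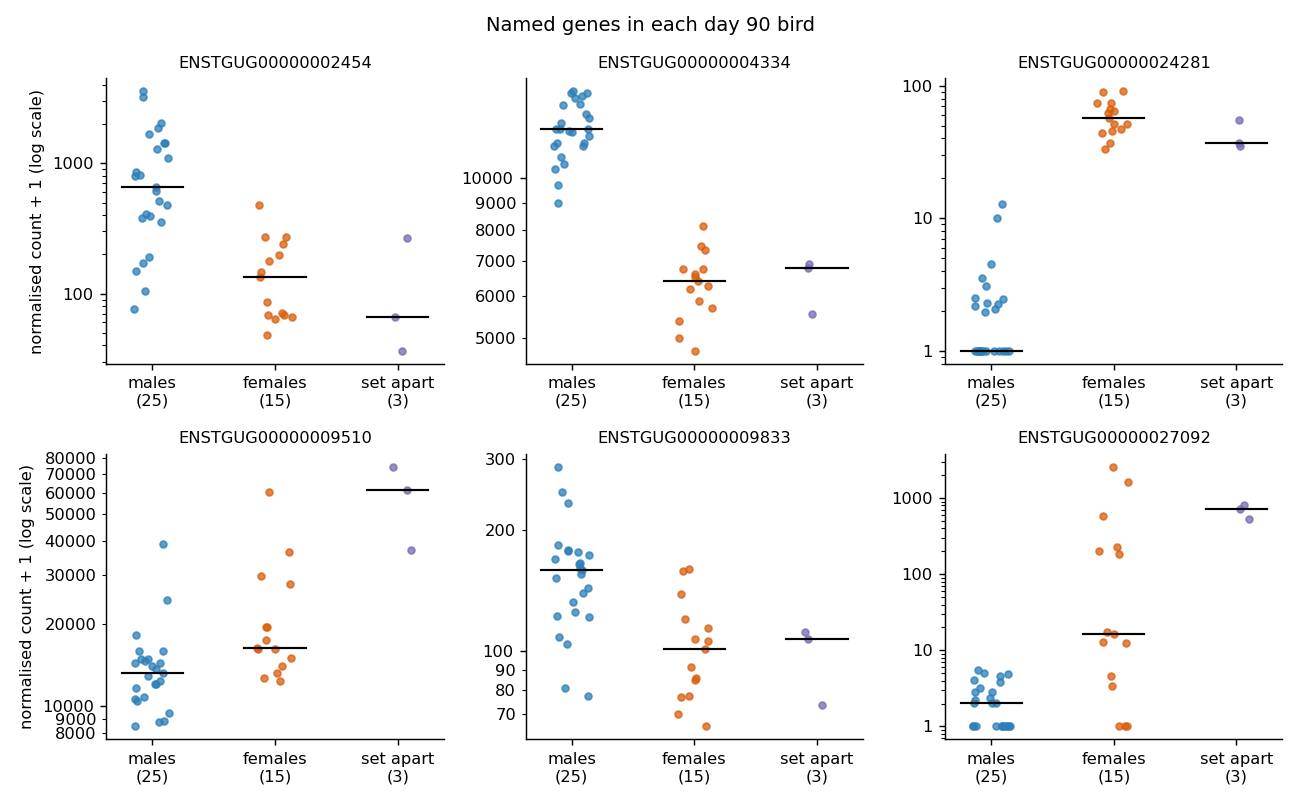
Normalised count plus 1 (log axes) of 6 genes in the 25 males, the 15 females and the 3 females set apart, 1 point a bird, with black lines at the medians. ENSTGUG00000004334 and ENSTGUG00000024281 part the sexes without overlap, ENSTGUG00000027092 lies at or under 4.59 in males and between 0 and 2554 in females, and the other genes overlap.

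The same comparison in birds of other ages, whose libraries the adult fit did not use, recovered most of the genes higher in males. Days 6, 18 and 35 held 62 males and 56 females. Over the mean of these ages, 481 of the 576 genes (83.5%) were again called higher in males and 0 were called lower, where 3.97% of all genes tested were called higher. Those 481 were 86.2% of the genes called higher in the younger males. Counted by age, 409 of the 576 were called higher at day 6, 457 at day 18 and 432 at day 35. The share of all genes tested called higher was 3.06%, 3.60% and 3.80% at these ages. At day 35, 1 of the 576 was called lower in males, where 1.83% of all genes tested were. At each of the 3 ages 382 were called higher, and 2.79% of all genes tested were. The median log2 difference of the 576 was 0.78 at day 6, 0.78 at day 18 and 0.75 at day 35, while the median over all genes tested was -0.02, -0.03 and -0.02.

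**Figure D3:**
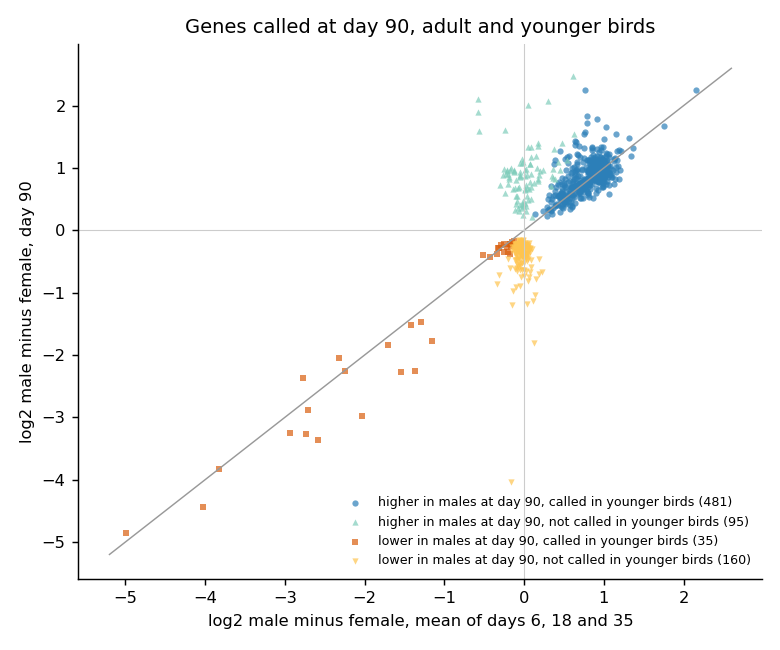
Log2 difference, male minus female, at day 90 against the mean of days 6, 18 and 35, 1 point for each of the 771 genes called at day 90. The grey diagonal marks equal values. The 481 genes higher in males at both stages and the 35 lower in males at both lie along it, and the others are centred near 0 on the horizontal axis.

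Averaged over the 576 genes, the sexes did not overlap at any age. Each bird's mean log2 value over the list was taken relative to the midpoint of the sexes at its age. At day 6 this mean was 0.17 to 0.60 in the 16 males and -0.47 to -0.13 in the 16 females. At day 18 it was 0.07 to 0.56 in 26 males and -0.53 to -0.25 in 20 females, and at day 35 it was 0.19 to 0.55 in 20 males and -0.50 to -0.10 in 20 females. The list was chosen on the day 90 birds, whose values of 0.21 to 0.66 in males and -0.58 to -0.22 in females only describe it. Over all genes tested the same mean ran from -0.16 to 0.13 in younger birds of either sex. The 3 females set apart lay at -0.74, -0.69 and -0.63, below each of the other females, and at -0.36, -0.37 and -0.29 over all genes tested.

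**Figure D4:**
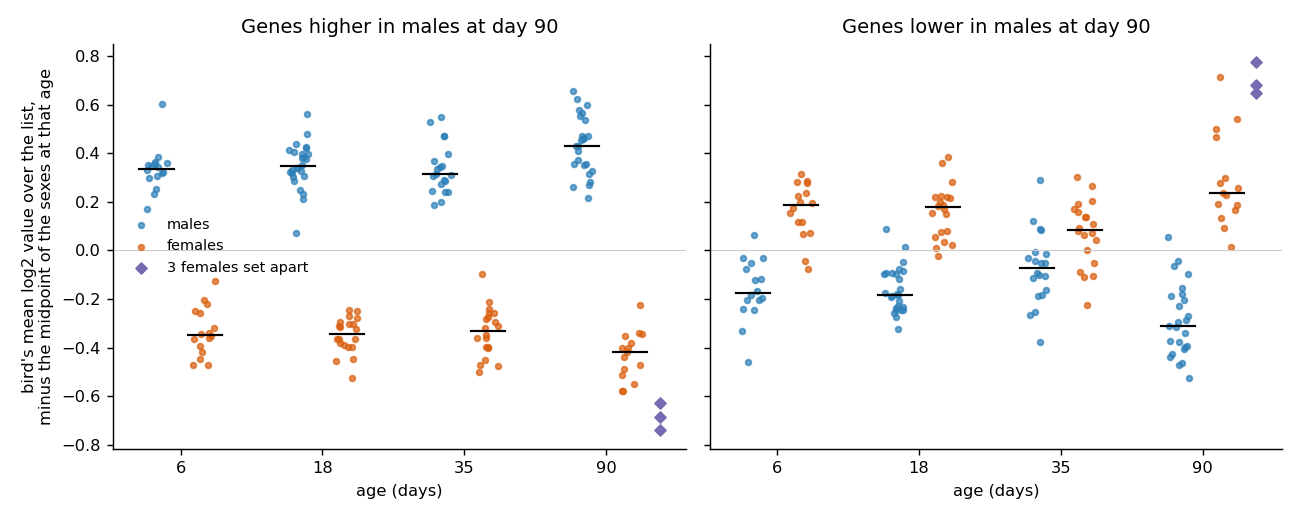
Mean log2 value of each bird over the 576 genes higher in males at day 90 (left) and the 195 lower in males (right), relative to the midpoint of the sexes at each age in days. Points are birds, black lines medians and diamonds the 3 females set apart. On the left no male overlaps a female of its own age, and on the right the sexes overlap, most at day 35.

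The 95 genes higher in males at day 90 but not called in younger birds had an adult difference of similar size, with a median of 0.88 on the log2 scale against 0.89 for the 481. Their median in younger birds, 0.01, with 48 of the 95 above 0, follows in part from how they were split off and only describes them. In the adults they varied more within each sex than the 481. This may also follow in part from the split, since a wide spread makes a call harder. The median SD of log2 values of the 95 was 0.66 in males and 0.71 in females. For the 481 it was 0.30 in males and 0.33 in females. The median level of the 95 was 76.8 normalised counts, against 291 for the 481. ENSTGUG00000002454 belongs to these genes, with 0.61 ± 0.24 (SE) in younger birds (limma, adjusted p = 0.166). The 3 females set apart had less of the 95 than the other 15 females, by a median of 1.35 on the log2 scale (log2 difference -1.35), where the median over all genes tested was -0.02. All 3 lay below all 15 in 27 of the 95 (28.4%) and in 11.7% of all genes tested. For the 481 genes that median was 0.25. When extraction batch replaced plate as a covariate, 439 of the 481 and 34 of the 95 were still called higher in males. Many batches held a single sex, so that fit compared fewer birds directly. The part of the females set apart in these differences was not tested.

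Genes lower in males spread over a wide range of sizes. At the large end, 23 of the 195 differed at least 2-fold, with a median level of 7.79 normalised counts, and 17 of these 23 were also called lower in the younger males, where 1.57% of all genes tested were. Every male lay below every female in 7 genes, 0.0499% of those tested, with log2 differences of -2.25 to -4.85. Limits were then set after the values were seen, a median of at least 10 normalised counts in one sex and at most 2 in the other. By these, 7 genes had the low median in males and 0 in females, and all 7 were called. This is another set of 7: in 4 of them every male lay below every female, and the rest overlapped. For ENSTGUG00000023047 the highest male had 19.1 normalised counts, against a female median of 11.5 and a lowest female of 0. In the younger birds 3 of this set met the same limits.

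ENSTGUG00000024281 had the largest difference of all genes lower in males. Males had 0 to 11.8 normalised counts with a median of 0, and females had 32.5 to 89.6 with a median of 56.1. All 15 females lay above the highest male. The log2 difference was -4.85 ± 0.32 (SE; limma, adjusted p = 8.93e-14) at day 90 and -4.996 ± 0.17 (SE, adjusted p = 7.16e-49) over the younger ages. At levels this low, the scale of log2(value + 1) understates the fold. Among the females set apart it stood at 33.9, 35.9 and 53.9 normalised counts, inside the range of the others.

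The other 88.2% of the 195 genes differed less than 2-fold, and 73.8% of the 195 by less than 0.5 on the log2 scale. Those under 0.5 were mostly abundant genes, with a median level of 630.0 normalised counts. This may follow in part from the calling, since the smallest difference called under a mean of 30 was -0.71. Of the genes under 0.5, 18 (12.5%) were called lower in the younger males. Of the 28 genes with differences of 0.5 to 1, 0 were called there (limma, adjusted p under 0.05), a share near the 1.57% of all genes tested. Across all 195, 35 were called lower in males over the younger ages. By age, 81% of the 195 had a negative estimate at day 6, 87.7% at day 18 and 40.5% at day 35. Of all genes tested, 55.1%, 57.9% and 54.2% had a negative estimate at these ages. At day 35, 5 of the 195 were called in the opposite direction, where 3.80% of all genes tested were called higher in males. The number called lower in males was 23 of the 195 at day 6, 40 at day 18 and 20 at day 35, and the share of all genes tested called lower was 0.413%, 1.08% and 1.83%. At each of the 3 ages 16 of the 195 (8.21%) were called, and 0.142% of all genes tested were. The 160 genes called lower in adult males but not in younger ones were higher in the 3 females set apart than in the other 15 by a median of 0.45, and 81.9% of the 160 lay higher there, against 48.7% of all genes tested. The 35 genes also called in younger birds leaned the same way, with a median of 0.23 and 71.4% higher. Missing a call in younger birds does not by itself show a change with age, for the 160 or for the 95 above.

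This direction rested more on single birds and on the covariates than the other. The count of 195 was 99 without control female replicate 1, the sole female on plate A. It was 98 without control male replicate 11, the sole male on plate K. It kept 54.4% of its size without control female replicate 5, which shared plate I with another female. The count moved less without MeHg male replicate 3, the sole male on plate E, or MeHg female replicate 6, the sole female on plate J. Whether being alone of its sex on a plate gave a bird more weight was not tested. The count was 53 with extraction batch in place of plate, and 41 of the 195 remained, 18 of them among the 23 that differed at least 2-fold. The birds fell into 18 extraction batches, against 9 plates, and many batches held a single sex. That fit therefore compared fewer birds of the 2 sexes directly. Without a plate term 189 genes were called lower in males, among them 54.9% of the 195. The count of genes higher in males was 489 with extraction batch and 638 without plate.

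ENSTGUG00000009510, the most abundant gene lower in males by at least 0.5, shows how far the ranges overlapped. It had 8439 to 38964 normalised counts in males, with a median of 13232, and 12396 to 60383 in females, with a median of 16281. In 12 of 15 females it lay above the male median, and 1 female lay above the highest male. The log2 difference was -0.62 ± 0.18 (SE; limma, adjusted p = 0.0327) with all 40 birds and -0.49 (adjusted p = 0.155) without control female replicate 1. It missed the threshold in 8 of the 40 fits that left out 1 bird, and when extraction batch stood in for plate (-0.49, adjusted p = 0.397). The 3 females set apart had 37077, 61076 and 74311 normalised counts. The lowest of these was above 14 of the other 15 females, and the rest were above all 15. Fitted apart, the difference was -0.14 ± 0.26 (SE, adjusted p = 0.999) in MeHg birds and -0.89 ± 0.28 (SE, adjusted p = 0.211) in controls, and -0.30 (adjusted p = 0.885) in cohort 1 and -1.06 (adjusted p = 0.123) in cohort 2. MeHg female replicate 8, the highest of the MeHg females compared, was on plate K, which held no MeHg male. With plate as a covariate, that female gave no direct comparison with males in the fit of MeHg birds.

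A direct test of whether the sex difference at day 90 departed from that of the younger ages called 2 genes by limma, 1 in each direction and each 0.00712% of those tested, where 1435 genes had an unadjusted p under 0.05. The edgeR test called 25. By limma, the rest of the 95 and of the 160 genes not called in younger birds were not shown to differ between the stages. ENSTGUG00000009833 had 76.5 to 286 normalised counts in adult males, with a median of 157.8, and 64 to 158.8 in adult females, with a median of 100.3. The adult log2 difference was 0.56 ± 0.14 (SE, limma, adjusted p = 0.0112), and that of younger birds was -0.10 ± 0.06 (SE, adjusted p = 0.587). Their difference was 0.65 ± 0.13 (SE, adjusted p = 0.0111). That test used a single spread for birds of all ages, and its SE was smaller than that of the adult difference alone. Its p-value therefore does not measure the spread among adults alone. Among adults with an RNA integrity number alone, the adult difference was 0.54 and missed the threshold (adjusted p = 0.0793). It also missed it in MeHg birds alone (0.65, adjusted p = 0.207), controls alone (0.68, adjusted p = 0.559), cohort 1 (0.77, adjusted p = 0.465) and cohort 2 (0.47, adjusted p = 0.218). In the females set apart the gene stood at 72.4, 106.3 and 110.6 normalised counts, inside the range of the other females.

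ENSTGUG00000027092 went the other way, and it was close to silent outside adult females. Adult males had 0 to 4.59 normalised counts with a median of 1.05. Adult females had 0 to 2554 with a median of 15.6, and 10 of the 15 lay above the highest male while 3 were at 0. In younger birds the highest value was 26.6, in a day 6 female, and the medians of both sexes were at most 1.60 at every age. The log2 difference was -4.03 ± 0.88 (SE; limma, adjusted p = 0.00187) in adults and -0.16 ± 0.17 (SE, adjusted p = 0.812) in younger birds. The test of the change gave -3.77 ± 0.58 (SE, adjusted p = 1.59e-05). It used a single spread for birds of all ages, and the gene varied far less in younger birds. Its SE was smaller than that of the adult difference alone, so its p-value does not measure the spread among adult females. In the females set apart the gene reached 536, 715 and 819 normalised counts. At control female replicate 1, the highest bird, 2554 stood far from the rest, and without it the adult difference was -3.37 (adjusted p = 0.0151). The adult call was lost in MeHg birds alone (-2.10, adjusted p = 0.818), controls alone (-5.39, adjusted p = 0.0644) and cohort 1 (-2.79, adjusted p = 0.885), and it held in cohort 2 (-4.86, adjusted p = 0.0391). In the fit of MeHg birds alone, the highest bird, MeHg female replicate 8, shared plate K with no male. That bird gave no direct comparison with males there. On recovered reads edgeR gave -6.93 and DESeq2 -6.62.

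The sex difference was also fitted in MeHg birds and in controls apart, which share no bird. Plate stayed a covariate in these fits, so plates with a single sex gave no direct comparison of the sexes. MeHg birds of both sexes shared only plates G, I and J, and controls only A, G, I and K. With fewer birds in each fit, 295 genes were called higher in males with MeHg (2.10% of those tested) and 212 in controls (1.51%). The genes in common were 57.3% of the MeHg list and 79.7% of the control list, and 0 were called in opposite directions. All 295 genes of the MeHg list had a positive estimate in controls. Of genes lower in males, 12 were called with MeHg (0.0855%) and 17 in controls (0.121%), and 8 were shared. In cohort 2 alone 391 genes were higher in males (2.78%) and in cohort 1 alone 236 (1.68%), of which 217 were shared, 55.5% and 91.9% of each list. Both sexes shared only plates B, F and I in cohort 1, and A, F, G, J and K in cohort 2.

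For a sex difference that varied with treatment, 0 genes passed by limma and 0 by edgeR, where 527 of 14042 had an unadjusted p under 0.05 in limma. For one that varied with cohort, 0 passed by either tool, and 591 genes had an unadjusted p under 0.05 in limma. Among the 576 genes higher in males the median estimate of sex by treatment was 0.05 on the log2 scale, against 0.02 for all genes tested, and 14 had an unadjusted p under 0.05. For ENSTGUG00000004334 it was 0.02 ± 0.14 (SE) and for ENSTGUG00000024281 0.07 ± 0.75 (SE). The median difference of the 576 genes was 0.88 in MeHg birds and 0.84 in controls, and that of the 195 was -0.28 in MeHg birds and -0.41 in controls. Both lists were called on these same birds, so the medians only describe them. A miss of the threshold does not show that the sexes differed equally in both diets. On simulated data the test of sex by treatment recovered 40% of 2-fold changes, and that of sex by cohort 34%.

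Keeping the 3 females in the fit raised the count to 2795 genes, 19.9% of those tested, with 1468 higher (10.5%) and 1327 lower in males (9.45%). Most of the genes called without them remained, 567 of the 576 higher in males and 185 of the 195 lower. The 901 genes added to those higher in males had a median difference of 0.72 with the 3 females and 0.35 without them, and the 1142 added to those lower in males had -0.31 and -0.19. All 2043 had the same sign without the 3 females. The 2 fits share 40 birds.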

How the data were processed

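Bone marrow RNA of zebra finches was sequenced in bulk. The deposited values are signal values, namely reads per gene that the authors counted with featureCounts (Subread) and divided by 1 size factor per library, with DESeq2 version 1.30.1 in R version 4.0.2 named in the submitters' processing notes. Within a relative tolerance of 1e-06, 100% of the values of each library were whole multiples of its smallest step, so reads were recovered for count-based alternatives. No genome build, annotation or strand setting is stated in the labels or headers (not given in the sources used here). The reference table paired 0 of 17292 identifiers with a symbol, so no gene lists, markers or sequences could be used.

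The 14042 genes that reached a value of 10 in 15 or more libraries were kept. Males were set against females with limma 3.58.1 (trend, robust) in R 4.3.3 on log2(value + 1), with treatment, cohort and plate as covariates and Benjamini-Hochberg adjustment at 0.05. Differences in younger birds, and the change from them to day 90, came from fits with age. Sex by treatment and sex by cohort were tested as interactions at day 90. Gene levels are given as lowest, median and highest bird. Named genes were, in each direction, the called gene with the largest difference (mean of at least 20 in the higher sex), the most abundant called gene with a difference of at least 0.5, and the called gene with the largest estimate when day 90 was set against younger ages. The fits were tested on simulated data. Of 195 pairs of libraries in the same group, none agreed within sampling noise (lowest chi-square per gene 13.8). The birds, covariates and lists were chosen with earlier results of these data known. Alternatives were edgeR 4.0.16, DESeq2 1.42.0, voom, other scalings, filters and covariates, and leaving out each bird.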

Additional observations from a re-analysis of the deposited data

Results flagged for a closer look

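In 4 of 12 groups tested (6 named genes in the 7 MeHg and in the 8 control females), the highest bird stood far from the rest. Chance sets apart about 1 in 20 groups of unselected, normally distributed values, and that rate need not hold here, since the genes were chosen for their differences in these birds and the counts are skewed. ENSTGUG00000027092 was at 1637.86 normalised counts in MeHg female replicate 8, with the next of the 7 MeHg females at 199, a gap of 0.878 of the group's range, past the 95% limit of Dixon's test. In control female replicate 1 it was at 2553.92, with the next of the 8 control females at 578 (gap 0.774 of the range). The same birds led for ENSTGUG00000009510, at 36432.3 in MeHg female replicate 8 with the next at 19382 (gap 0.716 of the range), and at 60382.7 in control female replicate 1 with the next at 29713 (gap 0.639 of the range). Males were not put through this test, so it does not compare the sexes. Among MeHg males, replicate 10 had 38964 normalised counts of ENSTGUG00000009510, with the next at 15953.5.

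The sex difference at day 90 differed from that of days 6, 18 and 35 for 2 genes by a test of the difference itself (limma). For ENSTGUG00000009833 it was larger by 0.65 on the log2 scale (adjusted p = 0.0111), and for ENSTGUG00000027092 the change was -3.77 (adjusted p = 1.59e-05). Both p-values rest on a single spread for birds of all ages. For both genes the SE of the change was smaller than that of the adult difference alone. The p-value of ENSTGUG00000027092 pools the spread of adult females with the much smaller spread of younger birds.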

How the results depend on the processing

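The count of genes lower in males moved most: 316 with DESeq2, 53 with extraction batch for plate, 95 in birds with an RNA integrity number (RIN), 55 with RIN as a covariate too, and 342 with the 3 males farthest from the male mean on 2 principal components also left out (a choice made after seeing the data). Smaller sets of birds gave fewer calls, in all, higher and lower: 307, 295 and 12 in MeHg birds, 229, 212 and 17 in controls, 251, 236 and 15 in cohort 1, and 422, 391 and 31 in cohort 2. With the 3 females kept they were 2795, 1468 and 1327. Leaving out 1 bird at a time (40 fits) gave 619 to 874 genes, 520 to 640 higher and 98 to 243 lower in males. Genes whose sex difference at day 90 departed from younger ages numbered 25 with edgeR, 5 with extraction batch and 1407 with the 3 females kept. The cause of these moves was not tested. Counts by edgeR were 790, 559 and 231. No gene called at day 90 was called the other way under any alternative run. ENSTGUG00000009510 lost its call with extraction batch (adjusted p = 0.397) and in birds with a RIN (0.104), and ENSTGUG00000009833 in birds with a RIN (0.0793; limma). No paired analysis was possible because the replicate numbers were given in accession order and the labels carry none. The titles carry a code, some of them shared by males and females, whose meaning is not stated. With that code within cohort as a random effect (correlation 0.0804) 804 genes were called, 585 higher and 219 lower in males. ENSTGUG00000027092 gave no value under the filter of 50 or more.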

Other observations

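The 4 females with the highest ENSTGUG00000027092 values among the 15 were also the 4 with the highest mean over the 195 genes lower in males. Control female replicate 1 had 2554 normalised counts and a mean of 0.72 on the log2 scale relative to the midpoint of the sexes, and MeHg female replicate 8 had 1638 and 0.54. Control female replicate 5 had 578 and 0.50, and control female replicate 2 had 227 and 0.47. The 25 males lay between -0.53 and 0.05. The match did not go on below these females. Next by list mean was control female replicate 9 at 0.30, with 11.9 normalised counts of the gene. Next by the gene were MeHg female replicate 7 with 199 and MeHg female replicate 6 with 182, and their list means were 0.19 and 0.24. The 3 females set apart had 536 to 819 normalised counts of this gene and means of 0.65 to 0.77. The gene is itself among the 195, and the ranking was noticed in these values. The list was also called on these same 15 females and 25 males, so females with high values helped to put genes on it. The high list means of the 4 females may follow in part from that calling. The match therefore only describes the 15 females and does not test a link between the gene and the list.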
